A study of Mus musculus with 12 samples.

Results

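Presynaptic vesicle and release genes were followed across the 4 groups of the study as 37 genes out of the 56953 in each deposited count table. They were found by symbol, each in 1 gene record of both tables, and fall into 4 classes: 19 encode proteins of the synaptic vesicle, 8 the machinery of vesicle fusion, 6 the scaffold of the active zone and 4 the endocytic recovery of vesicles. Messenger RNA was sequenced from mouse spinal cord in 12 libraries, 3 animals to a group. The groups were cKO and control at 4.5 weeks, and cKO and control at 4 weeks, and the labels count both times from tamoxifen for cKO and control animals alike. The cKO mice carry Ddx20 alleles flanked by loxP sites (Ddx20flox/flox) and Plp-CreER, a transgene whose recombinase follows the promoter of a myelin protein gene, is active in cells of the oligodendrocyte lineage, and enters the nucleus when tamoxifen is given. Ddx20 encodes a helicase of the complex that assembles splicing ribonucleoproteins. The labels call the other animals control without giving their alleles, and whether they carried the transgene is not given in the sources used here.

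At a synapse, vesicles filled with transmitter are docked at the active zone by scaffold proteins such as Bassoon, Piccolo, RIM and Munc13. Fusion is driven by a bundle of SNARE proteins, syntaxin and SNAP-25 on the plasma membrane and synaptobrevin (VAMP) on the vesicle, held ready by complexin and triggered by calcium through synaptotagmin. NSF and its adaptor SNAP take the spent bundle apart, and dynamin, amphiphysin, synaptojanin and endophilin retrieve the membrane. In the cord these messages are made mainly by neurons, both motor neurons and interneurons. In bulk tissue, fewer cells of a type and less RNA per cell cannot be told apart.

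The library totals lay between 33104560 and 47677267 estimated counts, and the lowest count of any of the 37 genes in any library was 420. Levels are given as CPM, counts divided by the library's size after scaling by the trimmed mean of M values. Ddx20 itself had 12.4, 11.1 and 13.3 CPM in the libraries labelled cKO and 9.16, 10.6 and 9.71 CPM in controls at 4.5 weeks. At 4 weeks it had 10.2, 11.1 and 9.9 CPM in the libraries labelled cKO and 11, 9.78 and 11.1 CPM in controls. The log2 fold changes were 0.33 (edgeR quasi-likelihood test, adjusted p = 0.013) and -0.031 (adjusted p = 0.84), so the transcript was not lower under the cKO label at either time, and counts per gene do not resolve a removed exon. By their Xist and Y-linked counts, the animals were female in all 6 libraries of 4.5 weeks and in cKO libraries 1 and 2 of 4 weeks, and male in cKO library 3 and the 3 controls of 4 weeks. Syp and Syn1 are the 2 members on the X chromosome. No pair of libraries within a group held the same values.

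Promoter sequence from RefSeq (GRCm38.p6, from shortly before to shortly after the annotated start of transcription) was matched by symbol for 30 of the 37 genes. It was searched on both strands for 4 short motifs known from neuronal promoters, because most of the genes moved together. These were the left arm (TTCAGCACC) and the right arm (GGACAGCGC) of RE1, the element bound by the repressor REST outside neurons, the cyclic AMP response element (CRE, TGACGTCA) and a core of the NRF1 element (GCGCATGCG). Among the 27025 genes with a promoter in the table, 0.433% held the left arm of RE1, 0.477% the right arm, 2.03% the CRE and 1.95% the NRF1 core. In the order of these motifs, 2, 1, 2 and 2 of the 30 members held them, in 4 promoters. These 4 are printed 5′ to 3′ along the gene with the motifs in capitals. Positions are counted from the start site as 0. Sh3gl2 (chr4:85205206-85205505, plus strand) held a CRE at -37 to -30. Unc13a (chr8:71671708-71672007, minus strand) held both RE1 arms on the opposite strand, the right one at 5 to 13 and the left one at 22 to 30. Bsn (chr9:108190334-108190633, minus strand) held the NRF1 core on both strands at -148 to -139 and again at -17 to -8. Syn1 (chrX:20920869-20921168, minus strand) held the left arm of RE1 at -232 to -224 and a CRE at -159 to -152, with an NRF1 core at the window's first bases. A match of letters describes the window and says nothing of binding.
Sh3gl2: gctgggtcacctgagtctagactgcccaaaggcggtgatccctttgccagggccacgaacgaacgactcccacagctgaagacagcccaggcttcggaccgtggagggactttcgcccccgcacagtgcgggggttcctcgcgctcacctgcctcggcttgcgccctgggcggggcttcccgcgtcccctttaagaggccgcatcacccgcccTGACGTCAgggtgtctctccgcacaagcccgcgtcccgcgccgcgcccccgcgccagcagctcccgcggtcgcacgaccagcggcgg
Unc13a: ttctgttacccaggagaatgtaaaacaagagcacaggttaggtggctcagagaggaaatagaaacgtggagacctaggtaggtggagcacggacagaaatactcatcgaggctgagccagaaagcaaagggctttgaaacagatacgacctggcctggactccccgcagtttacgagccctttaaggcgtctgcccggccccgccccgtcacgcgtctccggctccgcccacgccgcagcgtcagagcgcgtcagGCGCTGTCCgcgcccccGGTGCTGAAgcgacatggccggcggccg
Bsn: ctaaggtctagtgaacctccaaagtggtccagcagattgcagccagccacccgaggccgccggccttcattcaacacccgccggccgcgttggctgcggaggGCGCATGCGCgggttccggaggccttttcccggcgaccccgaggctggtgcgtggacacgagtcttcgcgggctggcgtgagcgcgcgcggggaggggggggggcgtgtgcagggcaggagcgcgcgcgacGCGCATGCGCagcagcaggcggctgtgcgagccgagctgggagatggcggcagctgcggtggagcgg
Syn1: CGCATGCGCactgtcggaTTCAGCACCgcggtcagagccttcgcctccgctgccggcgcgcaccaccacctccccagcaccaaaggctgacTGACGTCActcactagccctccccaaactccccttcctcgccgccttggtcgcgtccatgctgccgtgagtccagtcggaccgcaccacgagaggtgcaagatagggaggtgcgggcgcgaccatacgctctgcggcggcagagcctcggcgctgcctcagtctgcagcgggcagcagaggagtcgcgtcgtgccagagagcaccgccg

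Levels per length were compared in the controls of 4 weeks as CPM per kilobase of the longest principal transcript in GENCODE M21. The messages of fusion were the most abundant: Snap25 stood at 1005, Cplx1 at 629.9 and Vamp1 at 501 CPM per kilobase, followed by Syp at 379.8 and Rab3a at 369. The large scaffold genes were at the other end, with Bsn at 6.28 and Pclo at 5.12 CPM per kilobase, close to the t-SNARE gene Stx1a at 9.15. The lengths come from an annotation other than the one used for counting, so this order is approximate.

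At 4.5 weeks nearly the whole presynaptic set was lower in cKO than in control cords. Of the 37 genes, 35 fell at an adjusted p below 0.05 and 0 rose, where 32.6% of the 19278 genes tested fell and 33.3% rose (edgeR). No gene of the 37 was higher at an unadjusted p below 0.05 either, and DESeq2 and limma-voom called 0 higher. The classes gave 18 of 19 vesicle genes, 7 of 8 fusion genes, 6 of 6 active zone genes and 4 of 4 endocytosis genes. The median log2 fold change of the 37 was -1.28, against 0.021 over all genes tested, and the range ran from -2.19 (Sv2b) to -0.089 (Stx1a). The summed level of the 37 genes was 5517, 6215 and 6437 CPM in the cKO libraries and 15996, 16816 and 18044 CPM in controls. In 36 genes all 3 cKO libraries lay below all 3 controls, which held for 35.6% of all genes tested, while 36.8% had all cKO libraries above. Library by library, the median log2 ratio to the control mean was -1.48, -1.26 and -1.25, so cKO library 1 stood lowest, and it held the lowest value of its group in 32 of the 37 genes.

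**Figure D1:**
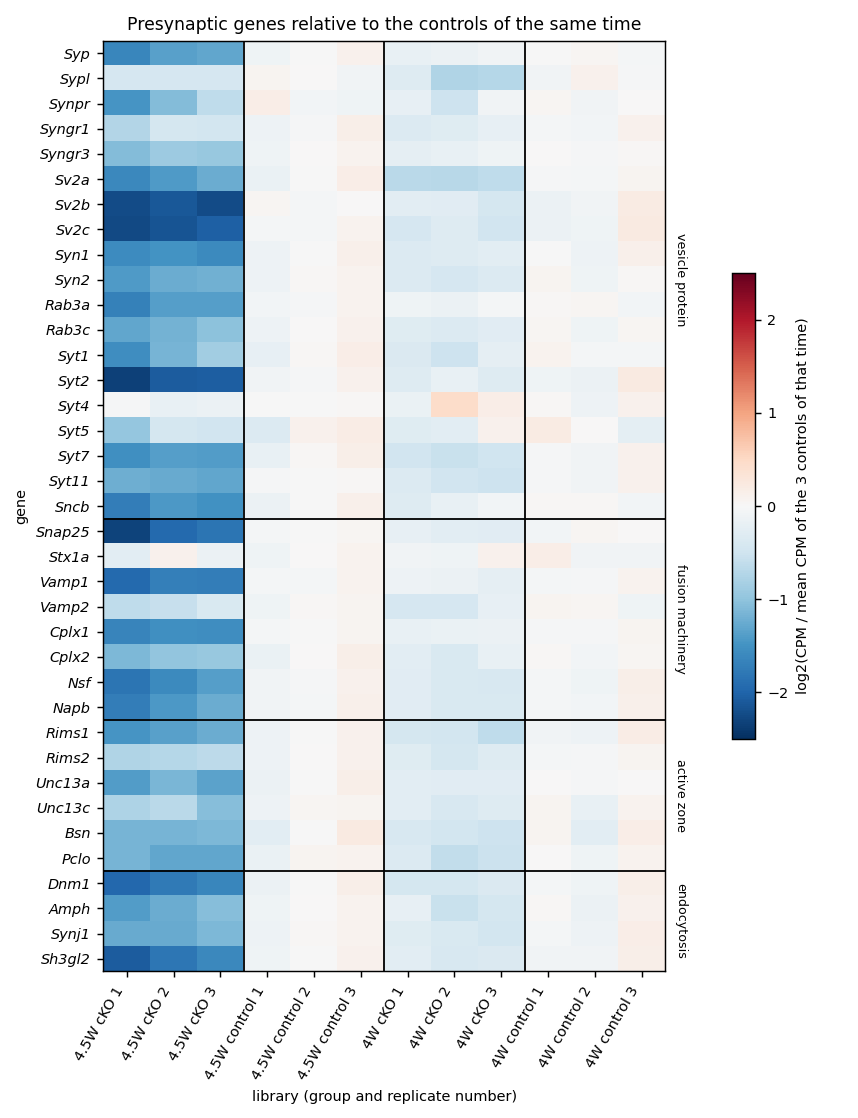
Heat map of the 37 genes (rows, by class) in the 12 libraries (columns), coloured by log2 of CPM over the mean CPM of the 3 controls of the same time. The cKO libraries of 4.5 weeks have medians of -1.48, -1.26 and -1.25 and those of 4 weeks -0.30, -0.37 and -0.31, with Syt4 and Stx1a pale at both times.

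Vesicle proteins held the deepest falls. Sv2b, one of the vesicle glycoproteins that set release competence, had 35.5, 38.8 and 35.9 CPM in cKO cords and 173, 163 and 168 CPM in controls at 4.5 weeks. The groups were far apart (log2 fold change -2.19, 95% interval -2.39 to -2.00, adjusted p = 8.1e-10). Sv2c, a relative with a narrower expression, had 130.3, 139.6 and 150.5 CPM in cKO cords and 604, 605 and 659.9 CPM in controls. It too fell without overlap (-2.15, -2.37 to -1.93, adjusted p = 2.1e-09). Syt2, the fast calcium sensor of spinal and brainstem synapses, stood beside them with 173, 206 and 209 CPM in cKO cords and 816, 854 and 937 CPM in controls (-2.15, -2.38 to -1.92, adjusted p = 3.3e-09). The other vesicle genes that fell did so by log2 fold changes of -1.55 (Syn1 and Sncb) to -0.42 (Sypl). They include Syp (-1.42), the abundant membrane protein synaptophysin, Rab3a (-1.48), the vesicle GTPase, Sv2a (-1.42), Syt7 (-1.44), a slow calcium sensor, Syn2 (-1.28), Syt11 (-1.26), Syt1 (-1.17), Rab3c (-1.17), Synpr (-1.03, synaptoporin), Syt5 (-0.62) and the synaptogyrins Syngr3 (-0.97) and Syngr1 (-0.54). Sncb encodes beta-synuclein and Syn1 and Syn2 encode synapsins, which tether vesicles in the reserve pool.

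Syt4, a synaptotagmin of dense-core vesicles that responds poorly to calcium, was the vesicle gene that did not pass the test. It had 159, 143 and 147 CPM in cKO cords and 162, 161 and 165 CPM in controls (log2 fold change -0.12, 95% interval -0.38 to 0.14, adjusted p = 0.39). Its cKO values lay just below the controls. Sypl, a relative of synaptophysin that is found in many tissues, had 100.5, 101 and 101 CPM in cKO cords and 142, 135 and 128 CPM in controls (-0.42, -0.64 to -0.21, adjusted p = 0.002). That call was lost with controls 1 and 2 of 4.5 weeks left out together (-0.35, adjusted p = 0.06), a setting that leaves 1 control library of that time, assumed to vary like the other groups.

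Fusion genes fell by a median of -1.51 on the log2 scale, with a wide spread within the class. Cplx1, a complexin that holds SNARE bundles ready, had 459.8, 499 and 490.0 CPM in cKO cords and 1386, 1426 and 1497 CPM in controls, far apart and even within each group (-1.57, -1.70 to -1.44, adjusted p = 4.6e-10). Vamp1, the synaptobrevin that prevails in the cord, had 399, 471 and 465 CPM in cKO cords and 1494, 1494 and 1624 CPM in controls (-1.79, -1.96 to -1.62, adjusted p = 1.1e-09). Snap25, the most abundant of the 37 messages, had 464, 600.2 and 651 CPM in cKO cords and 2212, 2295 and 2379 CPM in controls (-2.01, -2.23 to -1.78, adjusted p = 4.6e-09). Nsf (-1.58), the ATPase that recycles SNARE bundles, its adaptor Napb (-1.45) and Cplx2 (-1.02) also fell. Vamp2 fell less, with 188, 196 and 223 CPM in cKO cords and 272, 297 and 307 CPM in controls (-0.53, -0.71 to -0.35, adjusted p = 9.6e-05). Stx1a, one of the plasma membrane syntaxins, was the exception with overlapping groups, at 12.4, 16.1 and 13.5 CPM in cKO cords and 13.8, 15 and 15.8 CPM in controls (-0.089, -0.34 to 0.16, adjusted p = 0.51).

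All 6 active zone genes fell at 4.5 weeks, with a class median of -1.20. Unc13a, which encodes the main Munc13 priming factor, had 53.4, 63.9 and 55.8 CPM in cKO cords and 127, 139 and 154 CPM in controls (-1.28, -1.45 to -1.12, adjusted p = 1.5e-08). Pclo, encoding the giant scaffold Piccolo, had 66.6, 61 and 60.9 CPM in cKO cords and 134, 156 and 159.6 CPM in controls (-1.25, -1.44 to -1.06, adjusted p = 5.6e-08). Neither gene had overlapping groups. Rims1 (-1.36), Bsn (-1.15), Unc13c (-0.83) and Rims2 (-0.70) made up the rest.

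The 4 endocytosis genes fell by a median of -1.50. Dnm1, the neuronal dynamin that cuts vesicles from the membrane, had 235, 269.9 and 298 CPM in cKO cords and 826, 916 and 1011 CPM in controls (-1.78, -2.00 to -1.56, adjusted p = 1e-08). Sh3gl2, the endophilin that curves the membrane, had 67.6, 81.5 and 94.1 CPM in cKO cords and 267, 284 and 309 CPM in controls (-1.82, -2.06 to -1.59, adjusted p = 1.5e-08). In both genes the groups were far apart. Amph (-1.23) and Synj1 (-1.21), which encode amphiphysin and synaptojanin, fell somewhat less.

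**Figure D2:**
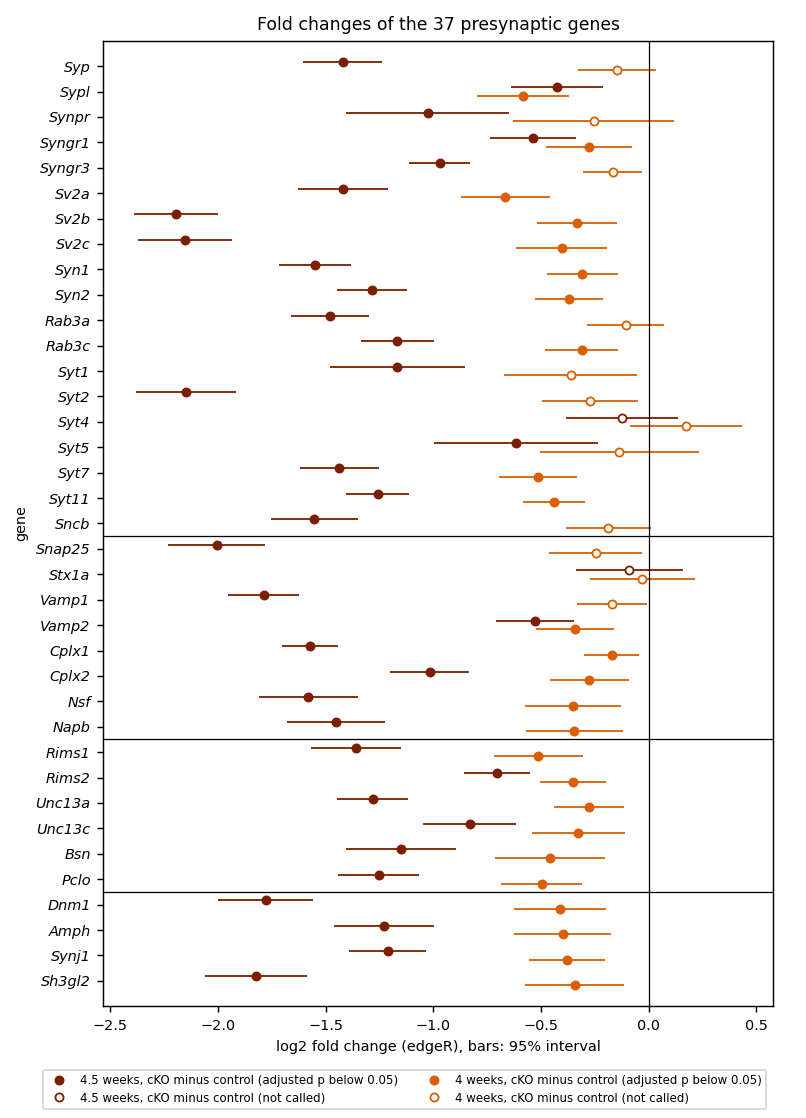
Log2 fold change of each of the 37 genes, cKO minus control, at 4.5 weeks (dark) and 4 weeks (orange), with bars for the 95% interval of the edgeR fit and filled points for an adjusted p below 0.05. At 4.5 weeks the points run from -2.19 (Sv2b) to -0.089 (Stx1a), and at 4 weeks from -0.67 (Sv2a) to 0.18 (Syt4).

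At 4 weeks the presynaptic genes were lower by smaller amounts. Of the 37, 25 fell and 0 rose, where 17.2% of all genes tested fell and 20.1% rose (edgeR, with 0 higher at an unadjusted p below 0.05 and 0 higher by DESeq2 or limma-voom). All 6 active zone genes and all 4 endocytosis genes fell, against 5 of 8 fusion genes and 10 of 19 vesicle genes. The median log2 fold change was -0.33, against 0.0072 over all genes tested, and the class medians were -0.31 for vesicle, -0.26 for fusion, -0.40 for active zone and -0.39 for endocytosis genes. The summed level was 12430, 12237 and 12332 CPM in cKO cords and 14678, 14547 and 15737 CPM in controls. In 33 genes the 3 cKO libraries lay below the 3 controls, a pattern of 23.1% of all genes tested, with 24.1% showing the opposite. The exceptions were Rab3a, Syt4, Syt5 and Stx1a.

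The 4-week comparison carries an imbalance of sex, and the count depended on how that was handled. With a sex term 10 of the 37 genes fell, and with the female cKO libraries 1 and 2 left out, which leaves 1 male cKO library against 3 male controls, 13 fell. The lone library is then assumed to vary like the other groups. The sex term could be estimated only within the cKO group of 4 weeks, the 1 group with both sexes. Its 4-week effect therefore also rests on male cKO library 3 against the 3 controls, and the 2 settings are not separate checks. Whether the lower counts come from sex or from fewer animals cannot be told apart. The share of all genes called in these settings is not given, so the counts describe only the 37 genes. The median log2 fold change of the 37 genes moved little, at -0.31 with the sex term and -0.33 without the female libraries, against -0.33 with all libraries. Calls lost in both settings were those of Syn1, Rab3c, Syngr1, Vamp2, Cplx1, Cplx2, Nsf, Napb, Unc13a, Unc13c, Dnm1 and Sh3gl2, and those of Bsn, Rims2 and Amph were lost with the sex term alone. Among the lost calls the folds shrank most in Vamp2 (-0.34 with all libraries, -0.21 with the sex term), Cplx2 (-0.27 and -0.18) and Syngr1 (-0.28 and -0.20). Some genes with no call at 4 weeks moved further. Across all alternatives Syt5 ran from -0.28 to 0.11 and Stx1a from -0.099 to 0.099, and neither was called. On its own, that male cKO library lay below all 3 controls in 33 of the 37 genes, with a median log2 ratio of -0.31 to the control mean. The female cKO libraries did so in 36 and 36 genes, with medians of -0.30 and -0.37. No share of all genes was worked out for a single library against the 3 controls, so these counts have no baseline.

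Sv2a, the broadly expressed vesicle glycoprotein, had the largest fall of 4 weeks. It had 292, 286 and 301 CPM in cKO cords and 456, 449.6 and 489 CPM in controls (log2 fold change -0.67, 95% interval -0.87 to -0.46, adjusted p = 0.00017), a wide gap with little spread. Syt11, a synaptotagmin that binds no calcium, had 818, 744 and 726 CPM in cKO cords and 1016, 978 and 1111 CPM in controls (-0.44, -0.58 to -0.30, adjusted p = 0.00026). Sypl had 105, 78.1 and 80.4 CPM in cKO cords and 123, 143 and 129 CPM in controls (-0.58, -0.80 to -0.37, adjusted p = 0.00061). These 3 calls held under every alternative run for them. The falls of Sv2b, Sv2c, Syn2 and Syt7 were also called at 4 weeks and held in the same way. Over the alternatives their log2 fold changes ran from -0.46 to -0.21 (Sv2b), -0.50 to -0.27 (Sv2c), -0.42 to -0.34 (Syn2) and -0.55 to -0.45 (Syt7).

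Among the fusion genes of 4 weeks, Vamp2 had 235, 236 and 271 CPM in cKO cords and 327, 323 and 291 CPM in controls (-0.34, -0.52 to -0.16, adjusted p = 0.0062). Nsf had 668, 627 and 615 CPM in cKO cords and 783, 754 and 899.7 CPM in controls (-0.35, -0.58 to -0.13, adjusted p = 0.018). Both pairs of groups were apart, by less than in Sv2a. The Vamp2 call was lost with the sex term (-0.21, adjusted p = 0.19) and with the 2 female cKO libraries left out (-0.22, adjusted p = 0.17). The Nsf call was lost in both settings (-0.40 and -0.42, adjusted p = 0.083 and 0.065), and also without cKO library 2 (0.054), cKO library 3 (0.063) or control library 3 (0.081). Cplx1 fell by 0.17 on the log2 scale (adjusted p = 0.037), a call lost in 12 of the 23 alternatives. Snap25 (-0.25, adjusted p = 0.072) and Vamp1 (-0.17, adjusted p = 0.094) did not pass the test, although their cKO libraries lay below the controls.

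In the active zone class, Pclo had 81, 66.7 and 71.1 CPM in cKO cords and 104, 95.6 and 109 CPM in controls at 4 weeks (-0.50, -0.68 to -0.31, adjusted p = 0.00075). Rims1, the scaffold that gathers calcium channels and vesicles, had 50.9, 50.2 and 44.7 CPM in cKO cords and 65.6, 63.3 and 79 CPM in controls (-0.51, -0.72 to -0.31, adjusted p = 0.0012). Bsn (-0.46), Rims2 (-0.35), Unc13c (-0.33) and Unc13a (-0.27) fell as well. In the endocytosis class, Synj1 had 176, 169 and 159.9 CPM in cKO cords and 212, 199.8 and 244 CPM in controls (-0.38, -0.55 to -0.20, adjusted p = 0.0031). Dnm1 had 578, 584 and 613 CPM in cKO cords and 764, 729 and 871 CPM in controls (-0.41, -0.63 to -0.20, adjusted p = 0.0056). Amph (-0.40) and Sh3gl2 (-0.34) fell too. Of these genes Pclo, Rims1 and Synj1 held their calls in every alternative, and the call of Dnm1 was lost with the sex term (-0.36, adjusted p = 0.096) and without the female cKO libraries (-0.38, adjusted p = 0.078). Unc13a had -0.27 (adjusted p = 0.1) and -0.29 (adjusted p = 0.083) in these settings, and Sh3gl2 had -0.36 (adjusted p = 0.12) and -0.38 (adjusted p = 0.098). With the sex term Bsn had -0.52 (adjusted p = 0.051), Rims2 -0.31 (adjusted p = 0.051) and Amph -0.45 (adjusted p = 0.059). Single libraries decided some smaller calls, with adjusted p of 0.051 to 0.12 on their removal: Sh3gl2 and Napb lacked a call without cKO library 2, cKO library 3 or control library 3, and Unc13c also without control library 1. Cplx2 lacked one without cKO library 2 or control library 1 or 3, and Syngr1 without cKO library 1 or 2 or control library 1 or 3.

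Vesicle genes that did not pass at 4 weeks were Syp (-0.15), Rab3a (-0.11), Sncb (-0.19), Syngr3 (-0.17), Synpr (-0.26), Syt1 (-0.36), Syt2 (-0.27), Syt5 (-0.13) and Syt4 (0.18). Syt4 was the only one of the 37 genes above 0, with 137, 211 and 172 CPM in cKO cords and 156, 139.9 and 164 CPM in controls. Its groups overlapped, and without cKO library 1 it was called higher (0.31, adjusted p = 0.015).

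**Figure D3:**
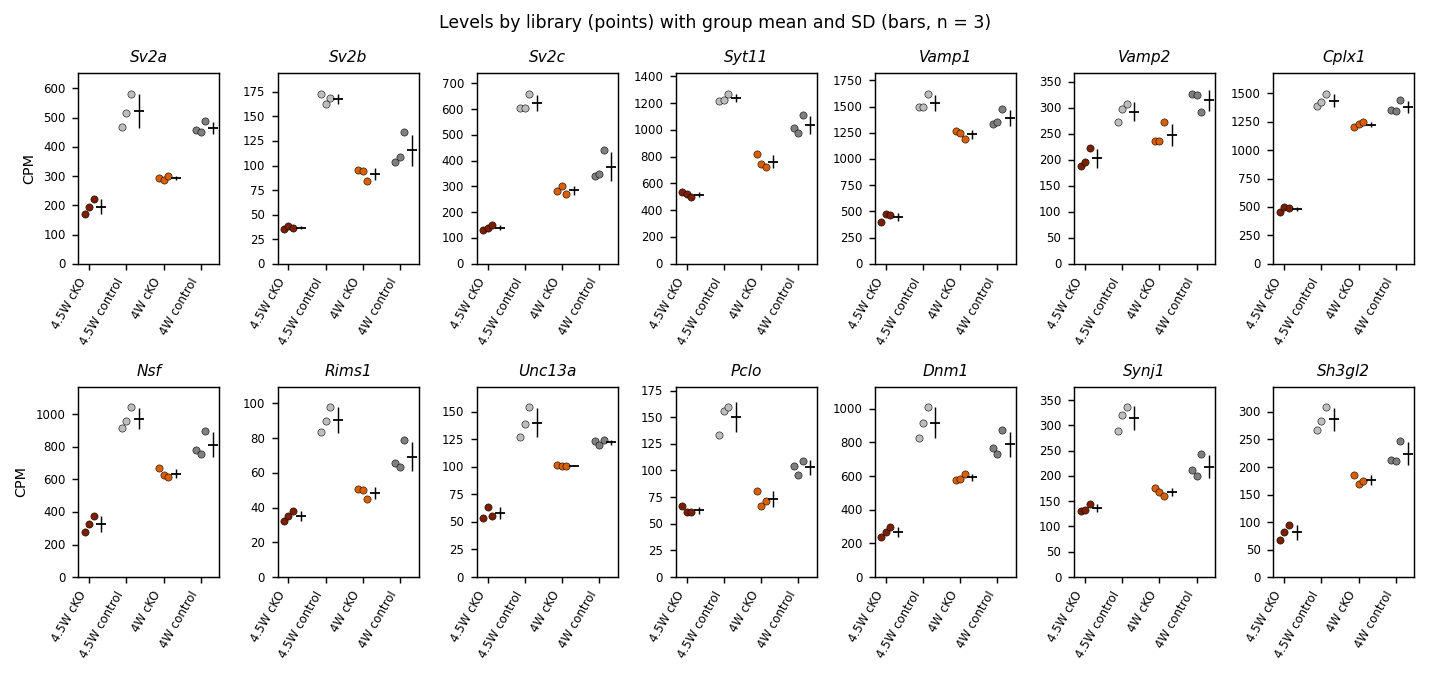
Level in CPM of 14 of the genes in each library (points, 3 to a group), with the group mean and SD to the right of each group (n = 3). At 4.5 weeks each cKO group stands apart below its control group, as in Cplx1 with 459.8 to 499 against 1386 to 1497 CPM, and at 4 weeks the gap is narrower.

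The effects of the 2 times differed in most of the genes. Of the 37, 31 had a more negative effect at 4.5 than at 4 weeks at an adjusted p below 0.05 and 0 a more positive one, where 21.9% and 18.7% of all genes tested did so (edgeR, with 0 more positive at an unadjusted p below 0.05 and 0 by DESeq2 or limma-voom). The median difference of the log2 effects was -0.85, against -0.025 over all genes tested. By class, 15 of 19 vesicle, 6 of 8 fusion, 6 of 6 active zone and 4 of 4 endocytosis genes were called. The smallest p belonged to Cplx1 (difference -1.40, 95% interval -1.58 to -1.22, adjusted p = 2.2e-07), Vamp1 (-1.62, -1.85 to -1.39, adjusted p = 4.5e-07) and Sv2b (-1.86, -2.13 to -1.59, adjusted p = 4.7e-07). Syt2 (-1.88) and Snap25 (-1.76) were of the same size. The 6 genes with no call were Syngr1 (-0.26), Syt4 (-0.30), Syt5 (-0.48), Stx1a (-0.059), Vamp2 (-0.19) and Sypl (0.16). Sypl was the 1 gene whose fall was smaller at 4.5 weeks (-0.42) than at 4 weeks (-0.58), and its difference was not called (95% interval -0.14 to 0.46, adjusted p = 0.41). Without cKO library 1 of 4 weeks it was called (0.32, adjusted p = 0.016), as was Syt4 (-0.43, adjusted p = 0.012). The call of Synpr was lost on removal of any of 4 single libraries, cKO library 3 or control library 2 of 4 weeks, or cKO library 2 or control library 1 of 4.5 weeks (adjusted p 0.052 to 0.058), and with controls 1 and 2 of 4.5 weeks left out together, which leaves 1 control library of that time (-0.67, adjusted p = 0.13). Syt5 was called without control library 1 of 4.5 weeks (-0.63, adjusted p = 0.047).

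The order of the genes by effect differed between the times. Over the 37 genes the effect at 4.5 weeks and that at 4 weeks had a Pearson r of 0.26 and a Spearman rho of 0.085, a description over genes that share libraries within each time. Genes with a higher level in the 4-week controls had more negative effects at 4.5 weeks (r = -0.57, rho = -0.62, n = 37), while the effect at 4 weeks, which shares those control libraries, had r = -0.022 and rho = 0.070.

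Related genes changed unequally, which was followed as the ratio of their CPM in each library for 10 pairs chosen with the values known. At 4.5 weeks the ratio of the cKO libraries lay wholly below the controls in 6 pairs and wholly above in 4. At 4 weeks it lay wholly below in 2 pairs (Syngr1 over Syngr3, Rab3c over Rab3a) and above in 1 (Sv2b over Sv2a). For the levels of single genes, 35.6% of all genes tested lay wholly below and 36.8% wholly above at 4.5 weeks. At 4 weeks these shares were 23.1% and 24.1%. No share was worked out for pairs of other genes, so the counts describe only the pairs chosen. Vamp1 over Vamp2 was 2.12, 2.40 and 2.09 in cKO cords and 5.49, 5.03 and 5.29 in controls at 4.5 weeks. At 4 weeks it was 5.38, 5.30 and 4.38 in cKO cords and 4.10, 4.18 and 5.07 in controls, with overlap. Syt2 over Syt1 was 2.96, 2.68 and 2.24 in cKO cords and 5.51, 4.91 and 4.91 in controls at 4.5 weeks. Cplx1 over Cplx2 was 3.44, 3.37 and 3.20 in cKO cords and 5.31, 4.85 and 4.62 in controls. Sv2b over Sv2a, Sv2c over Sv2a and Syn1 over Syn2 were also lower at 4.5 weeks. Rims2 over Rims1 went the other way, at 1.14, 1.09 and 1.05 in cKO cords and 0.684, 0.703 and 0.689 in controls, as did Unc13c over Unc13a, Syngr1 over Syngr3 and Rab3c over Rab3a. A ratio shows that 2 genes changed unequally and not which of them moved.

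**Figure D4:**
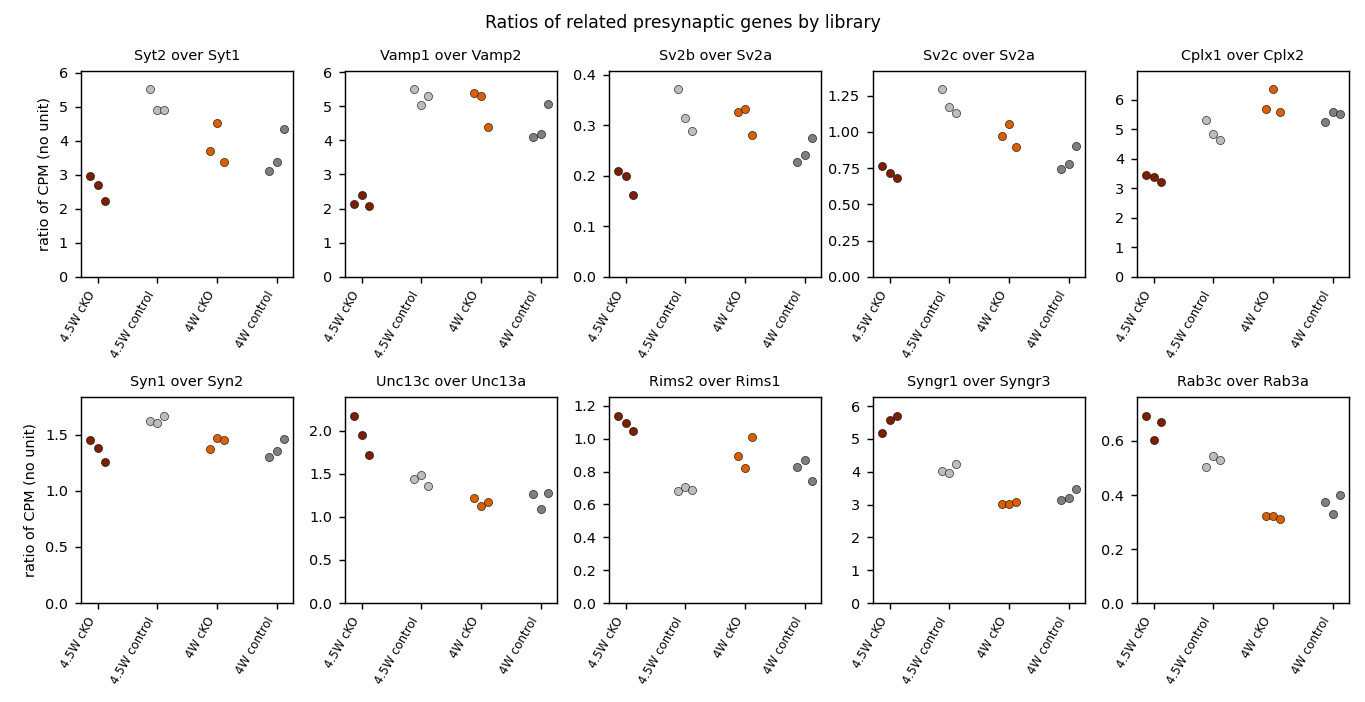
Ratio of the CPM of 2 related genes (vertical axes, no unit, from 0) in each of the 12 libraries for 10 pairs. At 4.5 weeks Vamp1 over Vamp2 is 2.09 to 2.40 in cKO cords and 5.03 to 5.49 in controls, and Rims2 over Rims1 is 1.05 to 1.14 in cKO cords and 0.684 to 0.703 in controls.

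The control groups of the 2 times were not alike for these genes. Between controls at 4.5 weeks and controls at 4 weeks, 13 of the 37 genes were called higher and 2 lower, where 9.53% and 7.21% of all genes tested were called. In 16 genes the 4.5-week controls lay above all 4-week controls (19.8% of all genes) and in 3 below (17.4%). Sv2c had 604, 605 and 659.9 CPM in controls at 4.5 weeks and 339, 349 and 443 CPM in controls at 4 weeks (log2 fold change 0.72, 95% interval 0.52 to 0.93, adjusted p = 0.0018). Synj1 had 289, 320.2 and 337 CPM in controls at 4.5 weeks and 212, 199.8 and 244 CPM in controls at 4 weeks (0.53, 0.35 to 0.70, adjusted p = 0.0024). Pclo had 134, 156 and 159.6 CPM in controls at 4.5 weeks and 104, 95.6 and 109 CPM in controls at 4 weeks (0.54, 0.36 to 0.73, adjusted p = 0.0026). None of these groups overlapped. Stx1a (-0.41, adjusted p = 0.027) and Syt5 (-0.61, adjusted p = 0.03) were the 2 called lower. Time, sex and the deposited table change together between these groups and cannot be told apart: with a sex term 0 genes were called higher and 0 lower, and with controls 1 and 2 of 4.5 weeks left out together, which leaves 1 control library of that time, 5 were called higher and 0 lower. The median log2 fold change of the 37 genes between controls was 0.21 and 0.33 in these settings, against 0.20 with all libraries and no sex term. Leaving out single libraries gave 6 to 15 genes higher and 0 to 2 lower. It gave 6 higher without control library 2 of 4 weeks or control library 2 of 4.5 weeks, 7 without control library 3 of 4.5 weeks and 8 without control library 1 of 4 weeks. The calls of Stx1a and Syt5 were both lost without control library 1 or 2 of either time.

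Another 51 presynaptic genes were listed by class. At 4.5 weeks 39 of them fell and 9 rose (median -0.79), where 32.6% of all genes tested fell and 33.3% rose. At 4 weeks 24 fell and 5 rose (median -0.22), where 17.2% of all genes tested fell and 20.1% rose. By class at 4.5 weeks, 13 of 14 vesicle genes, 11 of 12 fusion genes, 8 of 13 active zone genes and 7 of 12 endocytosis genes fell, and 0, 1, 4 and 4 rose. The share that rose among active zone and endocytosis genes was near that of all genes. Syt3, a synaptotagmin of high calcium affinity, had 37, 40.7 and 38.1 CPM in cKO cords and 109, 117 and 133 CPM in controls at 4.5 weeks (-1.63, adjusted p = 1.2e-09). The groups of Syt3 were far apart.

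The 2 rises with the smallest p at 4.5 weeks were broadly expressed relatives of endocytosis members. Dnm2, the dynamin found in most cell types, had 174, 162 and 164 CPM in cKO cords and 82.7, 83.6 and 85.9 CPM in controls (0.99, adjusted p = 1e-08), while its neuronal relative Dnm1 fell by 1.78. Sh3gl1, a widely expressed endophilin, had 51.7, 46 and 49.2 CPM in cKO cords and 26.8, 25.7 and 29.1 CPM in controls (0.85, adjusted p = 2.2e-07), while Sh3gl2 fell by 1.82.

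At 4 weeks the smallest p among falls of the other presynaptic genes belonged to Scamp5 (-0.37, adjusted p = 0.00041) and Itsn1 (-0.53, adjusted p = 0.0013). Among rises it belonged to Svop and Cltb, and both turned round between the times. Svop, a transporter-like vesicle protein, had 60.8, 70.6 and 61.5 CPM in cKO cords and 86.6, 93.8 and 107 CPM in controls at 4.5 weeks (-0.57, adjusted p = 2.6e-05). At 4 weeks it had 141, 144 and 152 CPM in cKO cords and 99.96, 97.9 and 100.2 CPM in controls (0.55, adjusted p = 0.00015). The difference of its effects was -1.12 (adjusted p = 6.4e-06). Cltb, a clathrin light chain, fell by 0.44 at 4.5 weeks (adjusted p = 5.8e-05) and rose by 0.36 at 4 weeks (adjusted p = 0.00087), with a difference of -0.80 (adjusted p = 2.2e-05).

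Markers of the cells that make and surround these synapses moved at the same time, and their part in the presynaptic results was not tested. Of 16 neuronal markers, 14 fell and 2 rose at 4.5 weeks (median -1.12; summed level 4245 to 4705 CPM in cKO and 8122 to 8706 CPM in control cords). At 4 weeks 7 fell and 0 rose (median -0.24; 7279 to 7468 CPM in cKO and 8116 to 8278 CPM in control cords). The 2 that rose at 4.5 weeks were Snhg11 (0.41) and Gap43 (0.24) (a growth cone protein). All 5 neurofilament genes fell at 4.5 weeks (median -1.96; 1819 to 2279 CPM in cKO and 8844 to 9605 CPM in controls), against 1 at 4 weeks (median -0.23; 5741 to 6495 CPM in cKO and 6492 to 7980.1 CPM in controls). Of 9 motor neuron markers 8 fell at 4.5 weeks (median -1.70; 235 to 316 CPM in cKO and 675 to 794 CPM in controls) and 1 at 4 weeks (median -0.099; 576 to 650 CPM in cKO and 536 to 630.1 CPM in controls).

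Glial lists moved at both times. Of 12 oligodendrocyte markers 11 fell at 4.5 weeks (median -1.88; 10947 to 11985 CPM in cKO and 30974 to 31426 CPM in controls) and 12 at 4 weeks (median -1.24; 14414 to 19576 CPM in cKO and 33932 to 36552 CPM in controls). All 10 microglial markers rose at 4.5 weeks (median 3.82; 6880 to 7700 CPM in cKO and 409 to 429 CPM in controls) and 9 of 10 at 4 weeks (median 1.90; 1158 to 1947 CPM in cKO and 471 to 478 CPM in controls). Of 8 oligodendrocyte progenitor markers 0 fell and 7 rose at 4.5 weeks (median 1.22; 1904 to 2282 CPM in cKO and 765 to 812 CPM in controls), and 2 fell and 2 rose at 4 weeks (median -0.11; 692 to 766 CPM in cKO and 809 to 897 CPM in controls). Of 9 astrocyte markers 7 fell and 2 rose at 4.5 weeks (median -0.60; 5800.1 to 6216 CPM in cKO and 8066 to 8281 CPM in controls), and 7 fell and 1 rose at 4 weeks (median -1.09; 3698 to 5990.4 CPM in cKO and 7287 to 7781 CPM in controls). Of 6 endothelial markers 0 fell and 3 rose at 4.5 weeks (median 0.37; 238 to 307 CPM in cKO and 175 to 197 CPM in controls), and 1 fell and 1 rose at 4 weeks (median -0.30; 152 to 228 CPM in cKO and 168 to 219 CPM in controls). None of the markers of these lists was at 0 in a whole group.

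**Figure D5:**
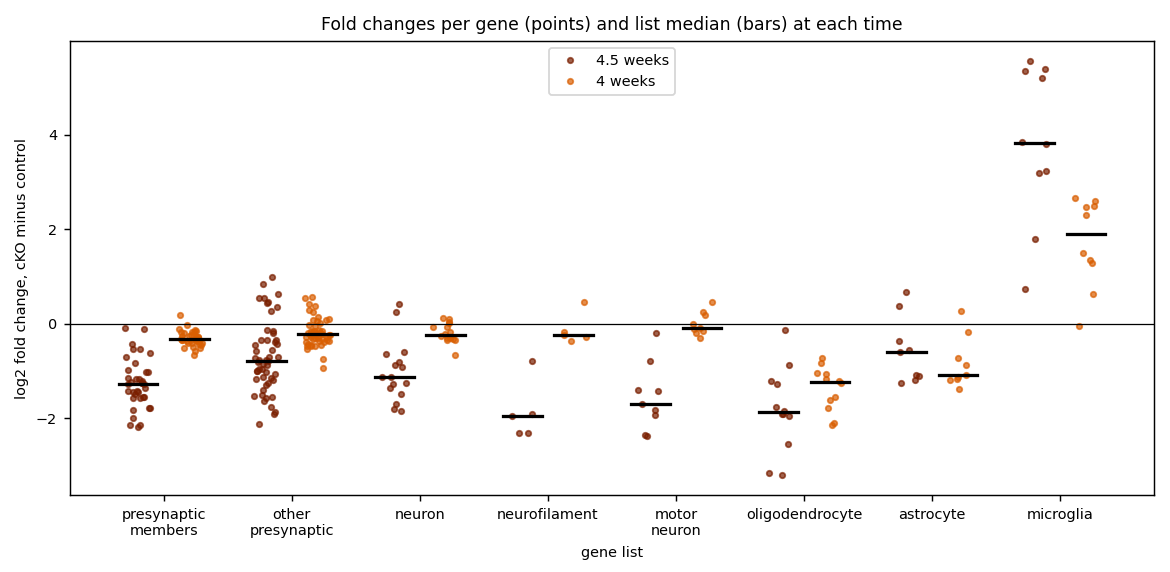
Log2 fold change of each gene (points, spread sideways for view) and list median (bars) for the 37 presynaptic genes, the other presynaptic genes and 6 marker lists, at 4.5 weeks (dark) and 4 weeks (orange). The presynaptic median is -1.28 at 4.5 weeks and -0.33 at 4 weeks, beside -1.12 and -0.24 for neuronal markers and -1.88 and -1.24 for oligodendrocyte markers.

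Transcripts of neighbouring tissue were low beside these levels but uneven. The 9 sensory ganglion genes with a count summed to 16.4 to 20.4 CPM in cKO and 7.26 to 97.9 CPM in control cords at 4.5 weeks, the highest value being control library 1. At 4 weeks they summed to 26.2 to 35.2 CPM in cKO and 7.88 to 9.54 CPM in control cords, and 1 of them, Mrgprd, was at 0 in all 3 cKO libraries. Of the 5 sensory genes tested, 3 fell and 0 rose at 4.5 weeks and 0 fell and 2 rose at 4 weeks. In the sum, controls 2 and 3 of 4.5 weeks had 7.26 and 8.01 CPM, below every cKO library, and only control library 1 lay above. The 8 Schwann cell genes summed to 65.7 to 70.2 CPM in cKO and 59.1 to 321 CPM in control cords at 4.5 weeks (5 fell, 1 rose), and to 47.4 to 95.8 CPM in cKO and 116 to 216 CPM in control cords at 4 weeks (0 called). The 7 skeletal muscle genes summed to 3.31 to 8.74 CPM in cKO and 5.07 to 150.5 CPM in control cords at 4.5 weeks (6 fell, 0 rose), and to 3.96 to 37 CPM in cKO and 2.94 to 12 CPM in control cords at 4 weeks (0 called). Single libraries stood out here as well. Of the controls of 4.5 weeks, library 1 had the highest Schwann sum, and the others had 61.8 and 59.1 CPM, below every cKO library. Library 2 had the highest muscle sum, beside 5.07 and 16.5 CPM in controls 1 and 3. With controls 1 and 2 of 4.5 weeks left out together, 34 of the 37 presynaptic genes were called lower at 4.5 weeks (median -1.39, against -1.28 with all libraries), by a fit in which 1 control library of that time is assumed to vary like the other groups. The part of these transcripts in the presynaptic results was not tested.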

How the data were processed

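Messenger RNA of mouse spinal cord was sequenced in 12 libraries, 3 animals in each of 4 groups taken from the sample labels. The authors deposited estimated counts per gene, not normalized, in a table for each time; per the submitters' processing notes STAR, RSEM and the mm39 build were used, with versions not given in the sources used here. Table columns were matched to samples by name. The estimated counts were rounded, filtered with filterByExpr over the 4 groups (19278 genes left), scaled by TMM and tested in 1 model of all libraries with edgeR 4.0.16 (quasi-likelihood F test, R 4.3.3), with Benjamini-Hochberg adjustment over all genes tested and calls at an adjusted p below 0.05. Intervals are 95% intervals of the fit. Every adjusted p in the text comes from this edgeR fit, or from the edgeR fit of the named setting, unless another tool is named. Alternatives used DESeq2 1.42.0, limma 3.58.1 (voom), other scalings and filters, a sex term, a replicate block and left-out libraries. The p-values set group differences against the spread between these libraries and treat the animals as independent. The labels do not say whether the animals of a group shared a litter, in which case the p-values could be too small. Samples with the same replicate number showed no shared deviation (correlations of -0.165 to 0.057), a check that in groups of 3 animals cannot exclude a pairing.

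The members and the other gene lists were chosen with earlier results of these data known. All 37 genes are described. Values per library are given for the 2 called genes of each class with the smallest p at each time, and for the 3 with the smallest p for the difference of effects and between controls. Syt4, Stx1a, Sypl at both times, the other genes with values at only 1 time, and the pairs of related genes were chosen after their values were seen. A further presynaptic gene that this choice would name is not reported here.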

Additional observations from a re-analysis of the deposited data

Results flagged for a closer look

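The cKO effect differed between the 2 times in 31 of the 37 genes by a test of the difference itself (edgeR interaction, adjusted p below 0.05). Of all genes tested, 21.9% had a more negative effect at 4.5 weeks by this test and 18.7% a more positive one. Each value is the log2 effect at 4.5 weeks minus that at 4 weeks, and each is negative. Among vesicle genes it was -1.28 for Syp, -0.771 for Synpr, -0.804 for Syngr3, -0.752 for Sv2a, -1.86 for Sv2b, -1.75 for Sv2c, -1.24 for Syn1, -0.915 for Syn2, -1.37 for Rab3a, -0.855 for Rab3c and -1.37 for Sncb. Among the synaptotagmins it was -0.806 for Syt1, -1.88 for Syt2, -0.924 for Syt7 and -0.818 for Syt11. The fusion genes gave -1.76 for Snap25, -1.62 for Vamp1, -1.4 for Cplx1, -0.742 for Cplx2, -1.23 for Nsf and -1.11 for Napb. The active zone genes gave -0.849 for Rims1, -0.353 for Rims2, -1.01 for Unc13a, -0.504 for Unc13c, -0.692 for Bsn and -0.758 for Pclo. The endocytosis genes gave -1.36 for Dnm1, -0.829 for Amph, -0.834 for Synj1 and -1.48 for Sh3gl2. The controls of the 2 times also differed in 15 of the 37 genes, where 9.53% of all genes tested were called higher and 7.21% lower. The time, the sex of the animals and the deposited table cannot be told apart there. The 4-week effect in each difference also carries the imbalance of sex between cKO and control animals.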

How the results depend on the processing

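The 35 falls of 4.5 weeks kept their number (34 with controls 1 and 2 of that time left out together, which leaves 1 control), and 35 were called on removal of each single library. At 4 weeks 25 genes fell, against 10 with a sex term, 13 with cKO libraries 1 and 2 left out together (chosen after seeing the data), 30 by DESeq2 and 18 to 29 on removal of single libraries. Genes higher at 4 weeks numbered 0 to 1 on such removal (Syt4). For the difference of effects 30 to 32 genes were called more negative and 0 to 1 more positive (Sypl). Between controls the 13 higher became 0 with the sex term, 5 without controls 1 and 2 of 4.5 weeks and 6 to 15 on removal of single libraries, and the 2 lower became 0, 0 and 0 to 2; the cause was not tested. No gene changed direction while called. Replicate numbers gave correlations of -0.165 to 0.057 over 6 same-numbered pairs. In groups of 3 animals such a check cannot exclude a pairing. With the replicate block 25 genes fell at 4 weeks, 35 at 4.5 weeks and 32 had a more negative effect at 4.5 weeks. The contrast of controls could not be fitted with the block, and fits of each time alone give neither that contrast nor the difference. With 3 animals a group, small effects at 4 weeks are the least certain.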
